A study of Arabidopsis thaliana with 45 samples.

Results

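Regions that carried trimethylation of lysine 27 on histone H3 (H3K27me3) in Arabidopsis seedlings given the TOR kinase inhibitor AZD8055, and in none of the DMSO libraries, are described here. Bases of chromosomes 1 to 5 that lay under peaks in all 3 AZD8055 libraries were joined over gaps of 100 bp or less, which gave 8341 regions of 200 bp or more. Of these, 411 overlapped no peak of any of the 3 DMSO libraries (4.93% of the regions examined), and they hold 116139 bp in all. The regions were thus chosen by peak calls in the AZD8055 and DMSO libraries, so their count, lengths and fold values in those libraries describe the choice and were not tested.

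All inhibitor libraries came from 7-day-old Col-0 seedlings in liquid medium with sucrose, to which 10 µM AZD8055, 10 µM Torin2 or the solvent DMSO was added on day 4 for 3 days. Other H3K27me3 groups allowed a reading of the same regions without the inhibitors. The first pair was tor-es seedlings of 7 days, in which oestradiol (10 mM as the labels write it, from day 3) depletes TOR, beside Col-0. The rest were the aerial part of 2-week-old plants on solid medium, namely amiR-fie-es (in which oestradiol switches on an artificial microRNA that targets FIE) beside wild-type Ctrl, and SSTS/AAAA beside GFP-FIE, both in the fie mutant and carrying the phosphorylation-site mutant or the wild-type form of GFP-tagged FIE. These 4 genotypes also have RNA libraries. H3K9me2, a different histone mark, was profiled in tor-es and Col-0 seedlings. Every group holds 3 libraries, the labels do not say whether replicates were grown apart, and whether Col-0 and Ctrl received oestradiol is not stated.

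H3K27me3 is written by Polycomb repressive complex 2 (PRC2), of which FIE is a WD40-repeat subunit, and in plants it typically lies over the bodies of silent developmental genes such as floral and seed regulators. H3K9me2 marks transposons and their remains, which crowd around the centromeres, and most such stretches carry little H3K27me3. TOR is a kinase that ties nutrient supply to growth, and AZD8055 and Torin2 both compete with ATP for its active site. The study asked how TOR and FIE bear on these marks.

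The peak lists of the inhibitor experiment stand apart from the other H3K27me3 lists, and this touches every result below. All 15 genes of a photosynthesis list and all 6 of a ribosomal protein list, which are among the most strongly transcribed genes of a seedling, lay under H3K27me3 regions in all 3 AZD8055 libraries. The counts were 15 and 5 in all 3 Torin2 libraries and 15 and 6 in DMSO, while 0 of either list did so in tor-es or in Col-0. Peaks numbered 13743 to 14638 per AZD8055 library, 11171 to 11927 per Torin2 library and 12870 to 13268 per DMSO library, against 5278 to 5662 in tor-es and 6882 to 7111 in Col-0. Peaks on the mitochondrial genome, which has no histones, numbered 30 to 33 per AZD8055 library, 19 to 26 per Torin2 library and 12 to 17 per DMSO library, against 0 to 2 in tor-es and 0 in Col-0. AZD8055 peaks were more numerous but shorter than DMSO peaks, with median lengths of 378 to 381 bp against 485 to 514 bp. They covered 5.57% to 5.95% of the 5 chromosomes, against 6.62% to 6.90% in DMSO. Reads behind each peak are not in these lists, so depth is unknown, and the part of peak-calling background in the gained regions was not tested.

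The gained regions were short and of low enrichment. Lengths ran from 200 to 1405 bp with a median of 249 bp, 303 of the 411 were under 300 bp, and 15 reached 500 bp. The 7930 AZD8055 regions that overlapped a DMSO peak had a median length of 432 bp. The fold enrichment that the authors' peak caller gave at the summit had a median over the gained regions of 2.99, 3.08 and 2.98 in AZD8055 replicates 1, 2 and 3. In the same libraries it was 3.95, 3.97 and 3.92 over the regions shared with DMSO. The gained regions' peaks sat at a median percentile of 43.7, 44.7 and 40.2 in their own lists, and 94 regions had a fold of 3 or more in all 3 libraries. Median −log10 q values were 5.29, 5.53 and 5.21, against 11.7, 11.5 and 11.5 over the shared regions.

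The length limit passed through a dense part of the distribution: 27 regions were exactly 200 bp long, 8 of 199 bp were left out, and 280 of 100 to 199 bp would otherwise have met the rule. The smallest DMSO overlap that left a region out was 17 bp. The gained regions were mostly not the edges of DMSO peaks. The nearest DMSO peak lay 11 to 181808 bp away with a median of 4684 bp, and 356 regions had none within 500 bp. At 33 regions, the AZD8055 peak of at least 1 library itself reached a DMSO peak outside the region.

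**Figure D1:**
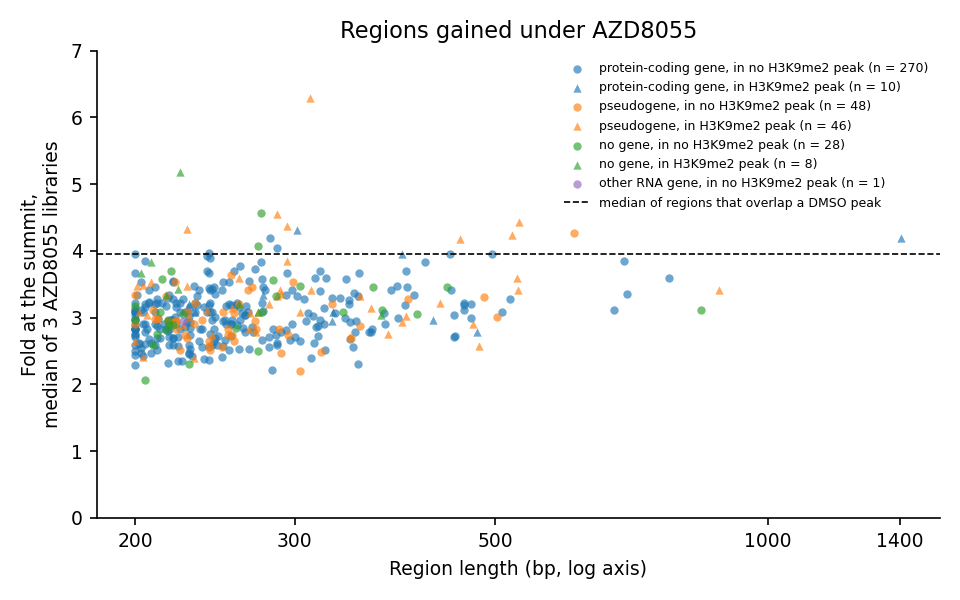
Length (bp, log axis) and fold at the summit (median of the 3 AZD8055 libraries) of each of the 411 gained regions, coloured by what lies there; triangles are regions with a peak in at least 1 H3K9me2 library. Most points lie under 300 bp and below the dashed line, the median fold of the AZD8055 regions that overlap a DMSO peak, and the highest point is the pseudogene AT5G29975.

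The regions fell into bodies of protein-coding genes and into pseudogene-rich stretches. By an overlap of at least 100 bp, 280 regions (68.1%) lay in a protein-coding gene, 94 (22.9%) in a pseudogene, 1 in another RNA gene, and 36 (8.76%) in no gene, of which 23 were within 1 kb of one. In all, 363 lay wholly inside a gene. Among the regions shared with DMSO, 92.8% were in protein-coding genes and 2.67% in pseudogenes. Among the 704 of 9546 DMSO regions that no AZD8055 library covered (7.37%), 64.5% were in protein-coding genes, 2.13% in pseudogenes and 28.6% in no gene.

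Stretches in which at least 50% of the 20 nearest genes are pseudogenes, as is usual around the centromeres, held 95 of the gained regions (23.1%), 2.51% of the shared regions and 1.14% of the DMSO regions without AZD8055 peaks. Of those 95, 64 were in pseudogenes, 23 in no gene and 8 in protein-coding genes. Those 8 are few of the 280 protein-coding members. Chromosomes 1 to 5 held 72, 67, 93, 71 and 108 gained regions. These were 3.33%, 4.89%, 5.77%, 5.44% and 5.70% of the AZD8055 regions of each chromosome. Exons, introns and strand could not be assigned from the reference used here.

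The 4 regions with the highest lowest-of-3 fold were in pseudogenes, and 1 of these was also marked in every Torin2, tor-es and Col-0 library. The region in AT5G29975, a pseudogene (TAIR10 chr5:11323986-11324297), had folds of 5.06, 6.30 and 7.71 in the 3 AZD8055 libraries, the highest lowest-of-3 value of all. It was also under peaks in all Torin2, tor-es and Col-0 libraries and in all 6 H3K9me2 libraries. Its folds were 4.1, 4.61 and 3.85 in Torin2, 8.22, 7.40 and 7.51 in tor-es and 5.38, 5.43 and 6.22 in Col-0, each from a list called on its own, so that folds were not compared between libraries. DMSO was the only H3K27me3 group without a peak there, though Ctrl lacked one in 1 of 3 libraries. The region at chr4:3987351-3987574, in no gene, had folds of 4.07, 5.53 and 5.18 in AZD8055 and was likewise covered in every library outside DMSO. Its folds there were 6.36, 5.35 and 5.83 in Torin2, 9.84, 11.5 and 10.3 in tor-es and 11.4, 11.5 and 9.89 in Col-0.

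Other regions among the 10 with the highest fold also lay in pseudogenes or outside genes. AT4G06656, a pseudogene (chr4:3842803-3843030), had AZD8055 folds of 4.33, 4.32 and 4.92 and was covered in 1 Torin2, 3 tor-es and 2 Col-0 libraries and all 6 of H3K9me2. AT4G06664, a pseudogene (chr4:3870031-3870317), had folds of 4.19, 5.14 and 4.56 and was covered in 2 Torin2, 1 tor-es, 1 Col-0 and 5 H3K9me2 libraries. The region at chr3:13598508-13598780, in no gene, had folds of 3.92, 4.63 and 4.07 and was covered in 2 Torin2 libraries and in none of tor-es, Col-0 or H3K9me2. AT2G07711, a transcribed pseudogene (chr2:3398617-3399147), had folds of 4.44, 5.27 and 4.42 and was covered in all 3 Torin2, 2 tor-es, 0 Col-0 and 2 H3K9me2 libraries. AT2G07711 and the protein-coding AT2G07674 (chr2:3269233-3269534; folds 4.32, 5.01 and 4.04) belong to the stretch of chromosome 2 known to be a copy of the mitochondrial genome. Reads of either copy can match the other, so both regions' values are uncertain. The genes of that stretch held 5 gained regions, all of them under H3K9me2 peaks in at least 1 library, and 1 region shared with DMSO. Regions of the stretch in no gene are not in these counts.

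The remaining regions with the highest fold lay in protein-coding genes and were seen in few other libraries. PERK10, a proline-rich extensin-like receptor kinase of the cell surface, had folds of 3.95, 4.88 and 4.04 over chr1:9042182-9042468, and 1 Torin2 library covered 81.9% of it. Its relative PERK13, known as a regulator of root hair growth, had folds of 3.95, 4.37 and 3.92 over chr1:26556390-26556834 and was likewise covered in 1 Torin2 library. FER3, a ferritin that stores iron in plastids, had folds of 4.19, 4.63 and 3.79 over chr3:20815707-20815988 and was covered in 1 Torin2 library. None of these 3 was under a peak in any tor-es, Col-0, amiR-fie-es, Ctrl, SSTS/AAAA, GFP-FIE or H3K9me2 library.

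The widest regions were of the same mixed kind. AT3G28780 carried the widest, 1405 bp (chr3:10806213-10807617; folds 4.26, 4.19 and 3.77), of which the Torin2 libraries covered 41.9%, 15.8% and 14.2% and 1 Col-0 library 24.1%. The pseudogene AT3G30703 had 882 bp (chr3:12258011-12258892; folds 3.45, 3.21 and 3.41), with 0 in Torin2 and peaks in 3 of 6 H3K9me2 libraries. A region of 843 bp in no gene (chr5:12012182-12013024; folds 3.55, 3.12 and 2.95) was covered over 81.0%, 57.4% and 61.3% in Torin2 and was in no tor-es, Col-0 or H3K9me2 library. AT3G01560 had 778 bp (chr3:220842-221619; folds 3.33, 3.60 and 3.86) and AT4G01870 had 699 bp (chr4:809540-810238; folds 3.36, 3.08 and 3.41), each covered in part in 2 Torin2 libraries and in none of tor-es or Col-0.

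The members were also read against gene lists. Lists of floral and flowering-time, meristem and boundary, embryo, seed storage, hormone, defence, photosynthesis, ribosomal, sugar starvation, PRC2, PRC1, demethylase, TOR pathway, root and pollen genes matched 200 distinct genes. A gained region overlapped 0 of the 200 and lay within 1 kb of 0 of them. The lists are not complete: the members RAP2.7, a repressor of flowering, and PERK13, of root hair growth, are in none of them. The members make up 1.01% of all protein-coding genes, so a count of 0 is near the background and says little about the lists. Of the same genes, 137 had an AZD8055 region that overlaps a DMSO peak. A DMSO region without AZD8055 peaks lay on 17, 6 of these in the floral and flowering-time list and 5 in the meristem list. Of all 27432 protein-coding genes, 6015 had the first kind of region and 439 the second. A gene can have both: AG, TSF, AGL24, AGL17, KNAT6, WOX5, YAB2 and YAB3 did, whereas MAF4, CAL and CUC1 had only the second.

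Most of the protein-coding members had RNA above the median of all protein-coding genes in 2-week-old Ctrl shoots. The protein-coding members number 278, of which 40 (14.4%) also had a region shared with DMSO, against 21.9% of all 27432 protein-coding genes. Of the 278, 6 had 2 gained regions each. These 6, named after their values were seen, were LBA1 (the RNA helicase of nonsense-mediated decay, also called UPF1), LCR (an F-box protein of leaf shape), UGD3 (a UDP-glucose dehydrogenase of cell-wall sugar synthesis), RBP45A (an RNA-binding protein), AT1G10390 and AT5G25630. RNA levels were read per exon length, as TPM, in the 3 Ctrl libraries of 2-week-old shoots. The median over the 276 members in the count table was 30.0, 28.8 and 29.1 TPM, against 5.31, 5.26 and 5.25 TPM over all protein-coding genes. Genes with a region shared with DMSO had medians of 2.74, 2.67 and 2.66 TPM. Genes with a region in all 3 Col-0 libraries, which stand for usual targets of the mark, had 0.0976, 0.0952 and 0.0902 TPM.

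In each Ctrl library 230 of the 276 members (83.3%) lay above the median of all protein-coding genes, and 57 to 61 (20.7% to 22.1%) lay in the top 10%. The top 10% also held 27.6% to 27.7% of the genes with a region shared with DMSO, a larger share than of the members. By the mean over the 3 libraries, 200 members (72.5%) fell between 10 and 100 TPM, where 33.9% of all protein-coding genes and 8.28% of those with Col-0 regions fell, while 39 members (14.1%) were under 1 TPM. Levels of 100 TPM or more were found for 16 members (5.80%), 17.9% of the genes with a region shared with DMSO and 5.05% of all protein-coding genes. Members also had longer transcripts than average, with a median summed exon length of 1809 bp against 1381 bp over all protein-coding genes, and a longer gene offers more room for a peak; the part of length in the choice was not tested. These levels come from Ctrl shoots on solid medium and not from the inhibitor-treated seedlings. Of the 89 pseudogenes and other genes of the regions that the count table lists, 87 were under 1 TPM.

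**Figure D2:**
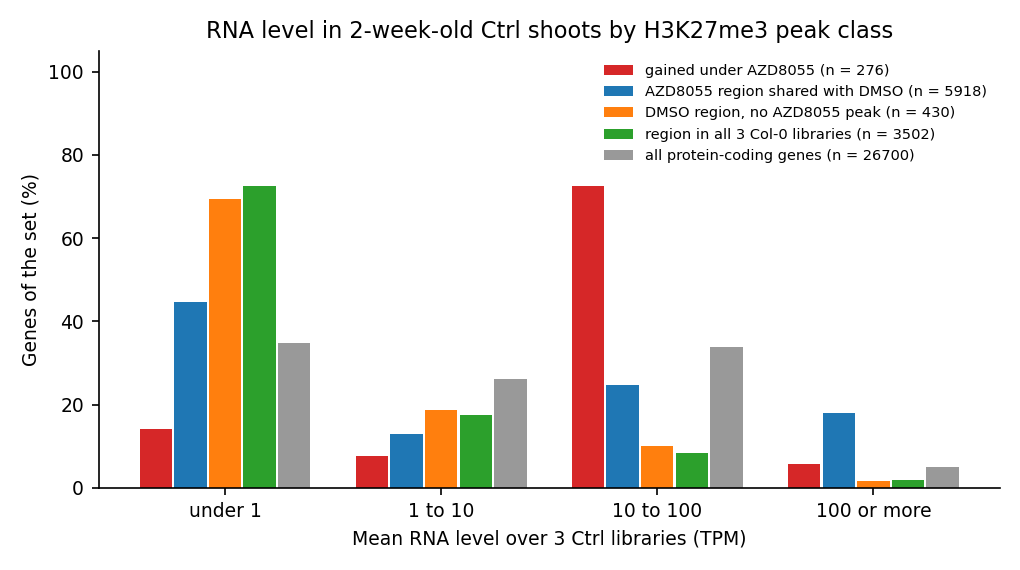
Share of genes (%) in 4 classes of RNA level (mean TPM over the 3 Ctrl libraries of 2-week-old shoots) for the genes of the gained regions, 3 other classes of H3K27me3 regions and all protein-coding genes; n is the number of genes in the count table. The gained regions' genes peak at 10 to 100 TPM with 72.5%, whereas 72.4% of the genes with a Col-0 region are under 1 TPM.

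Torin2, the other inhibitor, covered a small share of the gained regions. Its peaks lay on 12.3%, 14.9% and 11.7% of the regions' bases in replicates 1, 2 and 3 (mean 13.0% ± 1.69 SD, n = 3), while the DMSO libraries, by the rule, covered 0. The same Torin2 libraries covered 85.8% to 90.3% of the bases that AZD8055 shared with DMSO and 5.24% to 5.69% of the chromosomes. By region, 276 of 411 (67.2%) had no peak in any Torin2 library, 118 had one in 1 or 2 libraries, and 17 (4.14%) in all 3. Torin2 and AZD8055 share the DMSO libraries as controls, so the regions that each of them gained are given side by side. By the same rule 16 of 7691 Torin2 regions had no DMSO peak (0.208%), against 411 of 8341 AZD8055 regions.

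Torin2 coverage was highest outside genes. It was 27.8%, 24.1% and 25.7% of the bases of regions in no gene, 13.5%, 13.3% and 12.1% in pseudogenes, and 9.91%, 14.1% and 9.88% in protein-coding genes. Of the 17 regions covered in all 3 Torin2 libraries, 6 were in no gene, 6 in pseudogenes and 5 in protein-coding genes. An H3K9me2 peak of at least 1 library lay on 11 of the 17. At genes of the mitochondrial copy on chromosome 2, where values are uncertain, lay 3 of the 17, that of AT2G07667 among them. Another, in no gene, lay in the same stretch. The 5 genes, named after their values were seen, were U2B'' (a protein of the spliceosomal U2 particle), OPS (OCTOPUS, a polar membrane protein of phloem formation), AT3G28780, AT3G48420 and AT2G07667. The region in U2B'' (chr2:12905606-12905855) had folds of 3.08, 2.96 and 2.91 in AZD8055 and 2.27, 3.25 and 2.56 in Torin2. The region in OPS (chr3:2770473-2770942) had folds of 3.21, 2.96 and 3.41 in AZD8055 and 2.70, 3.04 and 2.56 in Torin2. Neither was covered in tor-es, Col-0 or H3K9me2 libraries.

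In tor-es, where TOR is depleted by RNA silencing, almost all the gained regions were without a peak, and so they were in Col-0. The tor-es libraries covered 2.50%, 1.96% and 2.24% of the regions' bases (2.24% ± 0.272 SD, n = 3), against 1.25%, 1.27% and 1.14% in Col-0 (1.22% ± 0.068 SD, n = 3). The groups did not overlap, although tor-es peaks covered less of the chromosomes than Col-0 peaks, 2.37% to 2.67% against 3.59% to 3.79%, and less of the regions shared with DMSO, 40.5% to 44.2% against 49.9% to 50.9%. By region, 396 of 411 had no peak in any tor-es library, 15 had one in at least 1 and 8 in all 3, against 10 and 3 in Col-0. Peaks in tor-es and in no Col-0 library lay on 7 regions, and the reverse held for 2. The 7 included 4 of the 5 regions at genes of the mitochondrial copy on chromosome 2, where values are uncertain. Another of the 7, in no gene, lay in the same stretch, between the regions of AT2G07674 and AT2G07677. The rest were in RHS8 and AT3G43864. Among 582 windows of 200 bp on the gained regions, 1 (0.172%) was covered in 3 of 3 tor-es and 0 of 3 Col-0 libraries, where 82 of 595714 windows of the chromosomes were (0.0138%). With 1 window, no result about the regions can be read from that share. Of the 14 tor-es regions without a Col-0 peak (0.449% of 3117), 1 of 14 overlapped 1 of the 411 gained AZD8055 regions.

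That region lies in the pseudogene AT3G43864 (chr3:15719139-15719378) and had folds of 3.11, 3.03 and 3.13 in AZD8055 and 6.54, 3.19 and 4.23 in tor-es. It had no peak in any Col-0 or DMSO library, peaks in 2 Torin2 libraries, and peaks in all 6 H3K9me2 libraries. All 8 regions covered in all 3 tor-es libraries had H3K9me2 peaks in all 6 libraries, and 3 were in pseudogenes and 5 in no gene. Beside the region on chromosome 4 already described, those in no gene lie at chr3:13814742-13814964 (AZD8055 folds 3.12, 3.43 and 3.78), chr3:14223678-14223885 (4.32, 3.03 and 3.84), chr4:3969153-3969355 (3.21, 3.98 and 3.67) and chr5:11708983-11709198 (3.08, 3.34 and 3.62). Peaks of 1, 2, 2 and 3 Col-0 libraries lay on these 4. Of the 280 regions in protein-coding genes, 3 had a peak in any tor-es library. These were RHS8, AT2G07779 and AT2G07667, named after their values were seen; the last 2 lie in the mitochondrial copy on chromosome 2. Without the 64 regions that any H3K9me2 library covers, a reading chosen after seeing the data, the share of bases covered was 0.168% in tor-es and 0.0696% in Col-0, and 11.1% in Torin2. No region was covered over at least 50% of its bases in all 3 Torin2 and all 3 tor-es libraries and 0 in Col-0.

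**Figure D3:**
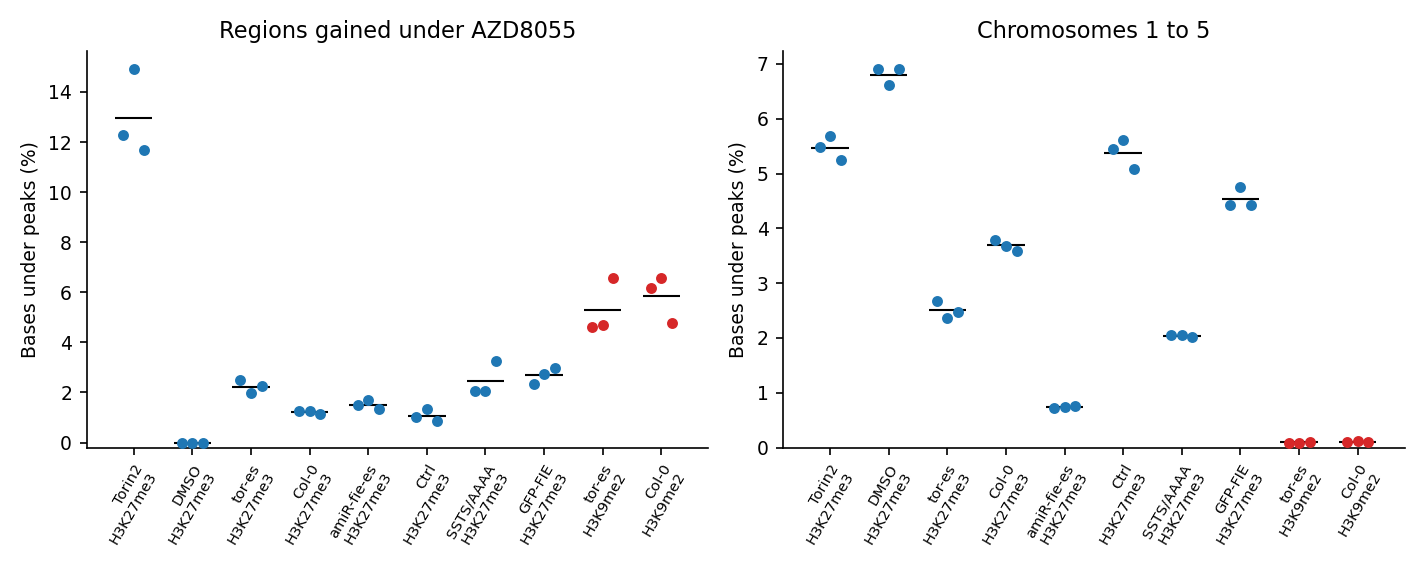
Share of bases under peaks (%) in the 411 gained regions (left) and in chromosomes 1 to 5 (right), for each library outside AZD8055; points are libraries, lines are means of 3, blue is H3K27me3 and red is H3K9me2. Torin2 libraries sit at 11.7% to 14.9% in the gained regions and the DMSO libraries at 0 by the rule; H3K9me2 libraries cover 4.62% to 6.58% of them but at most 0.121% of the chromosomes.

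The gained regions overlapped H3K9me2 peaks, a mark read here in tor-es and Col-0 seedlings without inhibitors. H3K9me2 peaks covered 4.62%, 4.68% and 6.58% of their bases in tor-es and 6.17%, 6.57% and 4.77% in Col-0, and the groups overlapped. The regions shared with DMSO were covered over 0.673% to 0.697% in tor-es and 0.665% to 0.735% in Col-0, the chromosomes over 0.0901% to 0.0994% and 0.0970% to 0.121%, and the DMSO regions without AZD8055 peaks over 0 in both. By region, 64 of 411 (15.6%) had a peak in at least 1 of the 6 libraries and 11 in all 6. Of these 64, 46 were in pseudogenes, 10 in protein-coding genes and 8 in no gene, so 46 of the 94 pseudogene members and 10 of the 280 protein-coding members had one.

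In the 2-week-old plants few of the regions were covered. The share of bases was 1.51%, 1.69% and 1.35% in amiR-fie-es, against 1.02%, 1.34% and 0.840% in Ctrl, and the lowest amiR-fie-es value lay next to the highest Ctrl value. By regions with a peak the groups overlapped, at 8, 9 and 7 in amiR-fie-es against 7, 7 and 6 in Ctrl. The same libraries' peaks covered 0.721% to 0.764% of the chromosomes in amiR-fie-es, against 5.08% to 5.61% in Ctrl. The share of the gained regions' bases was 2.06%, 2.04% and 3.27% in SSTS/AAAA, against 2.35%, 2.74% and 2.99% in GFP-FIE, and these groups overlapped. The same amiR-fie-es libraries covered 16.6% to 17.5% of the regions shared with DMSO, against 54.7% to 56.4% in Ctrl. Over all libraries, 267 of the 411 regions had no H3K27me3 peak outside AZD8055, and 231 had no peak of either mark outside AZD8055. Absence from the DMSO libraries is part of both counts and was set by the rule.

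The RNA libraries show what the members' genes did when FIE was lowered or its phosphorylation sites were changed; RNA under AZD8055 was not analysed here. FIE itself stood at 9.10, 8.79 and 8.81 CPM (counts scaled to library size and by TMM factors) in amiR-fie-es, against 15.7, 18.3 and 18.6 CPM in Ctrl. It stood at 12.2, 11.7 and 11.4 CPM in SSTS/AAAA, against 25.2, 27.6 and 23.8 CPM in GFP-FIE. The log2 fold changes of FIE were -0.98 in amiR-fie-es over Ctrl and -1.11 in SSTS/AAAA over GFP-FIE. SSTS/AAAA thus differed from GFP-FIE in FIE RNA as well as in the phosphorylation sites. The 2 cannot be told apart in that comparison. Of the 278 protein-coding members, 245 passed the filter on low counts and were tested, as were 20046 genes in all.

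Small changes were common among the members and large ones rare. In amiR-fie-es over Ctrl, 94 of 245 (38.4%) had higher RNA and 67 (27.3%) lower RNA at an edgeR adjusted p under 0.05, where 29.3% of all genes tested were higher and 30% lower. In SSTS/AAAA over GFP-FIE, 101 (41.2%) were higher and 86 (35.1%) lower, where 33.3% and 32.3% of all genes were. The balance turned when any 1 GFP-FIE library was left out, to 89 higher and 96 lower without replicate 1, 84 and 95 without replicate 2, and 86 and 95 without replicate 3. It turned over all genes tested as well, from 6666 higher and 6471 lower to 5786 and 6624 of 20230 without replicate 1. Without replicate 2 these were 5751 and 6618 of 20244, and without replicate 3 they were 5776 and 6635 of 20237. The median log2 fold change of the members was 0.04 in amiR-fie-es over Ctrl, against 0.01 over all genes tested, and 0.03 in SSTS/AAAA over GFP-FIE, against 0.02. Changes of at least 2-fold at the same threshold numbered 2 higher (0.816%) and 6 lower (2.45%) in amiR-fie-es over Ctrl, where 4.63% and 5.25% of all genes tested did so. In SSTS/AAAA over GFP-FIE they numbered 7 higher (2.86%) and 4 lower (1.63%), where 7.65% and 4.74% did. Members with a log2 change within 0.5 of 0 made up 85.7% and 82.4% in the 2 comparisons, against 75.5% and 70.8% of all genes tested. The members' higher RNA levels moved with these shares, and the part of level in them was not tested.

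**Figure D4:**
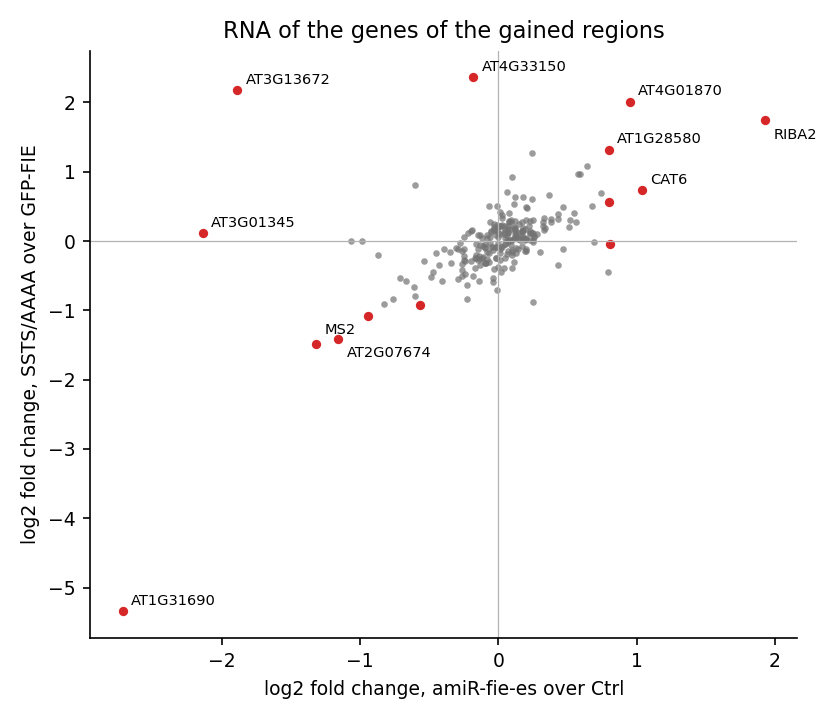
Log2 fold change of RNA in amiR-fie-es over Ctrl (x axis) and in SSTS/AAAA over GFP-FIE (y axis) for the 245 tested protein-coding genes of the gained regions; red points are the genes described in the text. Most points lie close to 0 on both axes, AT1G31690 is lowest on both, and AT3G13672 is lower in the first comparison and higher in the second.

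Among the members with the largest rises, RIBA2, an enzyme homologue of riboflavin synthesis, stood at 3.06, 3.63 and 3.20 CPM in amiR-fie-es, against 0.647, 0.773 and 1.16 CPM in Ctrl (log2 fold change 1.93 ± 0.19 SE, edgeR adjusted p = 5.26e-12). In SSTS/AAAA it had 4.12, 3.30 and 4.28 CPM, against 1.26, 1.16 and 1.08 CPM in GFP-FIE (1.74 ± 0.17, adjusted p = 4.77e-12). RIBA2 rose in both comparisons, with no overlap between groups. CAT6, a cationic amino acid transporter, had 14.2, 13.4 and 13.6 CPM in amiR-fie-es, against 7.00, 6.30 and 6.69 CPM in Ctrl (log2 fold change 1.04 ± 0.08, adjusted p = 1.80e-15). AT4G01870, which carries the fifth widest gained region, rose in amiR-fie-es (log2 fold change 0.95 ± 0.11, adjusted p = 1.10e-09). In SSTS/AAAA it had 51.1, 53.0 and 54.2 CPM, against 20.2, 9.52 and 9.54 CPM in GFP-FIE, where replicate 1 stood apart (log2 fold change 2.01 ± 0.10, adjusted p = 3.02e-21).

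AT4G33150, which encodes the lysine-degrading enzyme LKR/SDH, had 85.5, 87.2 and 86.2 CPM in SSTS/AAAA, against 16.4, 16.4 and 17.7 CPM in GFP-FIE (log2 fold change 2.36 ± 0.04, adjusted p = 1.41e-37). AT4G33150 was slightly lower in amiR-fie-es than in Ctrl (-0.18 ± 0.04, adjusted p = 9.30e-05). AT1G28580 rose in SSTS/AAAA over GFP-FIE by 1.32 ± 0.04 on the log2 scale (adjusted p = 1.28e-30). TTL4, a tetratricopeptide-repeat thioredoxin-like protein, and AT3G52500 rose in amiR-fie-es over Ctrl by 0.80 ± 0.04 and 0.81 ± 0.03. AT3G52500 did not pass the test in SSTS/AAAA over GFP-FIE, at -0.04 ± 0.03 (adjusted p = 0.233), but did so without GFP-FIE replicate 1 (-0.08, adjusted p = 0.0191).

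Among the largest falls, AT1G31690 had 0.661, 0.550 and 0.711 CPM in amiR-fie-es, against 4.17, 4.23 and 4.40 CPM in Ctrl (log2 fold change -2.72 ± 0.19, adjusted p = 2.07e-16). It had 0.11, 0.149 and 0.0269 CPM in SSTS/AAAA, against 3.16, 4.30 and 4.38 CPM in GFP-FIE (-5.34 ± 0.28, adjusted p = 7.17e-21). MS2, a methionine synthase, is an abundant transcript with 295, 296 and 305 CPM in amiR-fie-es, against 747, 745 and 741 CPM in Ctrl (-1.32 ± 0.02, adjusted p = 3.98e-41). It also fell in SSTS/AAAA over GFP-FIE (-1.49 ± 0.02, adjusted p = 4.66e-43); it has close relatives whose reads the authors' counting could have split. RAP2.7, also called TOE1, a repressor of flowering, had 37.5, 38.2 and 37.8 CPM in SSTS/AAAA, against 77.9, 78.3 and 83.7 CPM in GFP-FIE (-1.08 ± 0.04, adjusted p = 1.64e-28). FAD5, a plastid fatty acid desaturase, fell there by 0.92 on the log2 scale (adjusted p = 5.18e-35).

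The difference between the 2 effects passed the test for 136 of the 245 members (55.5%), where it did for 45.5% of all genes tested. AT3G13672 moved in opposite directions against its 2 reference groups, which themselves differed. It had 1.86, 1.98 and 1.31 CPM in amiR-fie-es, against 6.03, 6.78 and 6.21 CPM in Ctrl (log2 fold change -1.89 ± 0.14, adjusted p = 1.77e-15). In SSTS/AAAA it had 2.75, 2.11 and 2.53 CPM, against 0.502, 0.529 and 0.599 CPM in GFP-FIE (2.18 ± 0.21, adjusted p = 4.42e-12). AT3G01345 had 0.0901, 0.122 and 0.0547 CPM in amiR-fie-es, against 0.359, 0.405 and 0.436 CPM in Ctrl (-2.14 ± 0.51, adjusted p = 0.000375). It did not pass in SSTS/AAAA over GFP-FIE, at 0.11 ± 0.61 (adjusted p = 0.881). AT2G07674, in the mitochondrial copy, was lower in amiR-fie-es (-1.16 ± 0.46, adjusted p = 0.0271), a call that ended when amiR-fie-es replicate 1 or 2 or Ctrl replicate 2 or 3 was left out (adjusted p = 0.0772 to 0.145). In SSTS/AAAA over GFP-FIE it stood at -1.41 ± 0.42 (adjusted p = 0.00312). Among the pseudogenes and other genes of the regions 4 were tested, of which SADHU4-1, a non-coding retrotransposon named after its values were seen, had 7.45, 8.09 and 7.22 CPM in amiR-fie-es, against 3.81, 4.46 and 4.58 CPM in Ctrl (0.82 ± 0.10, adjusted p = 1.38e-09). In SSTS/AAAA SADHU4-1 had 7.23, 7.14 and 6.63 CPM, against 4.41, 4.19 and 3.85 CPM in GFP-FIE (0.75 ± 0.10, adjusted p = 1.34e-08). At the regions of the 14 protein-coding genes, named for their RNA, no tor-es or Col-0 library had a peak. Of all 280 regions in protein-coding genes, 277 had none in tor-es and 278 none in Col-0, so this says little about the 14.

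Of the genes tested at the regions with the highest fold and the widest regions, AT2G07674 and AT4G01870 are given above. PERK10 stood at 153, 154 and 153 CPM in amiR-fie-es, against 189, 181 and 179 CPM in Ctrl (log2 fold change -0.26 ± 0.02, adjusted p = 2.15e-12). In SSTS/AAAA it fell by 0.33 against GFP-FIE (adjusted p = 5.72e-16). FER3 passed the test in SSTS/AAAA over GFP-FIE (-0.18 ± 0.04, adjusted p = 0.000533) and not in amiR-fie-es over Ctrl (0.01 ± 0.04, adjusted p = 0.855). AT3G01560 was at 0.27 ± 0.04 in SSTS/AAAA over GFP-FIE (adjusted p = 1.77e-07) and at 0.08 ± 0.04 in amiR-fie-es over Ctrl (adjusted p = 0.120). PERK13 passed neither test, at -0.01 ± 0.33 (adjusted p = 0.989) and -0.70 ± 0.34 (adjusted p = 0.0682), and had 0.323 to 0.626 CPM in Ctrl.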

How the data were processed

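Per the submitters' processing notes, the tools were Trimmomatic 0.36, BWA 0.7.15-r1142, SAMtools 1.6 and MACS2 (no version) for ChIP, with builds TAIR10 and hg19. There are 33 deposited peak lists, 1 for each library, with 4 values for every peak: a score, the fold ratio of its summit to background, the −log10 p and the −log10 q, all as the authors' caller wrote them. Inputs, duplicates and the q threshold are not stated. Peaks of 1 library were merged into covered bases, and starts were made 1-based. The H3K27me3 and H3K9me2 antibodies were Millipore products, per the labels.

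For RNA the same notes name FastQC 0.11.5, HISAT2 2.1.0 and featureCounts from Subread 1.5.3; strand and multi-mapping settings are not given in the sources used here. The deposited values are raw counts, 28866845 to 34543091 per library, and 0 columns stayed unmapped. Columns headed NST were taken as SSTS/AAAA because the peak files of that group carry the same name. The exon length column gave the TPM computed here from the counts; depth limits precision at low levels.

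RNA was tested by edgeR 4.0.16 (R 4.3.3) with filterByExpr, TMM, 1 fit of 12 libraries by group, the two-sided quasi-likelihood test and Benjamini-Hochberg adjustment over 20046 genes. Every adjusted p printed comes from it. The test was first tried on simulated data with known changes. Where nothing says that libraries came from separate cultures, p-values measure the spread between them, which may be technical. Pairs of replicates differed by 1.46 to 3.43 times counting noise (chi-square per degree of freedom). The largest values, 3.29 and 3.43, were those of SSTS/AAAA replicate 1 with the other replicates of its group. The common coefficient of variation beyond counting noise was small, at 0.0255. Names came from a TAIR10.1 table that matched 31912 of 32678 IDs. That table also placed genes against the peaks: 387 genes were covered over at least 90% with no shift and 61 to 118 with shifts of 1000 to 20000 bp. It prints no coordinates here and gives no strand. No genome or sequence table was used, so no sequence or motif is given.

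Genes named are those at the 10 regions with the highest lowest-of-3 fold, those at the 5 widest regions, list genes overlapped or within 1 kb (0 found), regions covered over at least 50% in all Torin2 and tor-es libraries and 0 in Col-0 (0 found), and the 5 largest rises and falls in RNA past the threshold among protein-coding members in each comparison. The members and lists were chosen with earlier results of these data known. Alternatives were other length, gap, q and overlap limits, RLE size factors, DESeq2 1.42.0, no low-count filter, a replicate block, 6-library fits and each library left out.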

Additional observations from a re-analysis of the deposited data

Results flagged for a closer look

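The difference between the effects in SSTS/AAAA over GFP-FIE and in amiR-fie-es over Ctrl was tested in the same edgeR fit for the 14 genes named for their RNA, and passed for 12; it passed for 45.5% of all genes tested. Given as the log2 effect in SSTS/AAAA minus that in amiR-fie-es, it was larger in size than 1 for 5 genes. It was 4.07 for AT3G13672 (edgeR adjusted p = 1.04e-17). This gene was lower in amiR-fie-es than in Ctrl and higher in SSTS/AAAA than in GFP-FIE, in 3 of 3 libraries each. It was 2.54 for AT4G33150 (adjusted p = 4.34e-33), 2.25 for AT3G01345 (adjusted p = 0.0207), -2.62 for AT1G31690 (adjusted p = 3.10e-06) and 1.06 for AT4G01870 (adjusted p = 4.21e-07). The reference groups also differed. Mean CPM in Ctrl and GFP-FIE was 6.34 and 0.543 for AT3G13672, 58.9 and 16.8 for AT4G33150, and 0.4 and 0.121 for AT3G01345. It was 4.27 and 3.95 for AT1G31690, and 13.1 in both for AT4G01870. For AT3G13672, SSTS/AAAA (2.46) and amiR-fie-es (1.72) both lay between the references.

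Smaller differences past the threshold were 0.52 for AT1G28580, -0.85 for AT3G52500, -0.35 for FAD5, -0.32 for CAT6, -0.24 for TTL4, -0.17 for MS2 and -0.14 for RAP2.7 (adjusted p from 1.37e-22 to 0.0189). The genes were chosen for large changes in 1 or both comparisons, which favours a difference between them.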

How the results depend on the processing

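The count of 411 gained regions depended on the length and q limits: it was 15 with a minimum length of 500 bp, 691 with 100 bp, 110 with AZD8055 peaks of −log10 q of 5 or more and 5 with 10 or more. Leaving out AZD8055 replicate 1, 2 or 3 gave 818, 908 and 869 regions, since fewer libraries then had to carry a peak, and leaving out a DMSO replicate gave 474 to 514. The share of bases covered in Torin2, 13.0%, was 25.0% for regions of 500 bp or more, 23.3% for AZD8055 peaks of −log10 q of 5 or more, 5.29% with that limit on the Torin2 peaks and 11.1% without regions under H3K9me2 peaks. For tor-es the same 4 settings gave 1.57%, 6.30%, 1.5% and 0.168% in place of 2.24%, and for Col-0 they gave 1.10%, 3.84%, 0.838% and 0.0696% in place of 1.22%, with 1.34% where no DMSO peak lay within 500 bp. The cause was not tested, apart from the alternatives' own construction. The single window gained in tor-es became 0 with windows of 500 bp, and 1 to 4 with a library left out: 4 without tor-es replicate 2, 2 without tor-es replicate 3 and 3 without Col-0 replicate 3.

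The 52 alternatives for the 4 RNA counts stayed within 1.5 times. Same-numbered libraries did not deviate together (correlations -0.04 to 0), so the numbers do not pair the samples; with a replicate block the counts were 92 higher and 66 lower in amiR-fie-es over Ctrl and 101 and 86 in SSTS/AAAA over GFP-FIE. Over all 20046 genes tested, the block gave 5844, 5984, 6636 and 6447. With each library left out the members' counts ran from 89 to 95 and 61 to 64, and from 84 to 100 and 81 to 96. Over all genes, 20183 to 20244 tested, they ran from 5393 to 5483 and 5683 to 5729, and from 5751 to 6395 and 6240 to 6635. DESeq2 gave 90, 62, 94 and 84 among the members, and 5356, 5487, 5904 and 6155 among all 20041 genes. Among 395 alternatives for single named genes, 4 ended a call (AT2G07674) and 1 made one (AT3G52500). Peak lists without depth cannot separate an absent peak from one below the authors' threshold.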
